A study of Homo sapiens with 8 samples.

Results

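The Hippo pathway genes and YAP target genes described here are 33 members, chosen by gene symbol and each found on the array as 1 probe set that the platform annotation assigns to that single gene, out of 18417 genes tested. They were measured in BT549, a human triple-negative breast cancer cell line, on 8 gene expression arrays of total RNA, 4 from cells in forced suspension and 4 from attached cells, described by the series as biological replicates. Suspended cells spent 24 h on poly-HEMA, a non-adhesive polymer coating. Attached cells grew on ordinary culture plastic, for 24 h by the growth and source fields of the labels and for 48 h by the treatment field, so that culture time and attachment cannot be told apart if the longer time holds. All 8 cultures had the same medium, RPMI with 10% fetal bovine serum and insulin, and no genetic change or drug is named for either group. All come from a single line, and the labels used here give neither the share of live cells nor the degree of clumping in suspension.

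The Hippo pathway is a kinase relay that holds back the transcriptional co-activators YAP, encoded by YAP1, and TAZ, encoded by WWTR1. The kinases STK3 and STK4, with the scaffold SAV1, activate LATS1 and LATS2, which work with MOB1 proteins. Active LATS phosphorylates YAP and TAZ, which are then kept in the cytoplasm or degraded, and otherwise both enter the nucleus and switch on genes through the DNA-binding TEAD proteins. Attachment, cell spreading and tension in the actin skeleton are known to favour nuclear YAP and TAZ, and loss of attachment is known to activate LATS. TAZ is known to be abundant in mesenchymal and triple-negative breast cancer lines. Phosphorylation, localisation and stability of these proteins are not seen by an array of transcripts.

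Signals are on a log2 scale, inferred from their size, with array medians of 6.02 to 6.07 and maxima of 13.69 to 13.74. There is no read depth on an array, and the precision depends on the number of arrays and on the spread of each gene over them. Pearson correlation over the 33297 probe sets was 0.993 to 0.996 for pairs of suspended samples, 0.995 to 0.996 for pairs of attached samples, and 0.987 to 0.994 for pairs across the groups. Signals of the line's own markers matched its mesenchymal, triple-negative label in part. VIM, which encodes vimentin, lay between 11.59 and 11.74 on the 8 arrays, while CDH1, ESR1 and PGR, which encode E-cadherin and the estrogen and progesterone receptors, stayed at 5.18 or less, below the 25th percentile of gene means (5.283). Of 4 mesenchymal markers ZEB1 was called higher (8.81 to 8.86 in suspended, 8.46 to 8.63 in attached cells) and CDH2 lower (8.50 to 8.59 in suspended, 8.89 to 8.96 in attached cells). Of 3 measured epithelial markers 0 were called, with EPCAM at 5.02 to 6.04 and KRT19 at 6.27 to 6.91 over the 8 arrays. ESRP1, also listed as an epithelial marker, was not measured. ERBB2 lay between 7.44 and 7.60, and without a background measure no absence can be stated for it. Of 3 leukocyte markers CD14 was called higher in suspension (5.58 to 5.93 in suspended, 5.46 to 5.57 in attached cells), and the summed log2 signal of the 3 was 14.14 to 14.67 in suspended and 14.02 to 14.22 in attached cells. None of 3 endothelial markers was called. The part of these markers in the results below was not tested.

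Between suspended and attached cells 14 of the 33 members fell and 5 rose at a limma adjusted p under 0.05, and 14 did not pass. Of the members 42.4% were called lower and 15.2% higher, against 10.2% and 10.4% of all 18417 genes tested (20.6% in either direction). The members were chosen with earlier results of these data known, so these shares are not independent evidence of a direction. The median log2 difference, suspended minus attached, was −0.05 over the members and 0.02 over all genes, and the median size of the difference regardless of sign was 0.258 over the members and 0.0918 over all genes. The balance over all genes depended on scaling: centring each array on its median over the tested genes left 13.4% lower and 7.28% higher, and 15 members lower and 5 higher. All 4 suspended values lay below all 4 attached values for 15 members (12.2% of all genes) and above them for 6 (12.7% of all genes), and the groups overlapped for 12. At least a 2-fold fall was seen for 2 members, CRIM1 and AXL (0.109% of all genes), and no member rose 2-fold (0.233% of all genes were called and rose 2-fold). In bulk RNA, fewer cells with a transcript and less of it per cell cannot be told apart, and without a background measure a fold is a ratio of signals, not of transcript amounts. The SD over the 4 arrays of a group ranged from 0.0121 to 0.190 among members, with medians of 0.0685 in suspended and 0.0573 in attached cells.

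**Figure D1:**
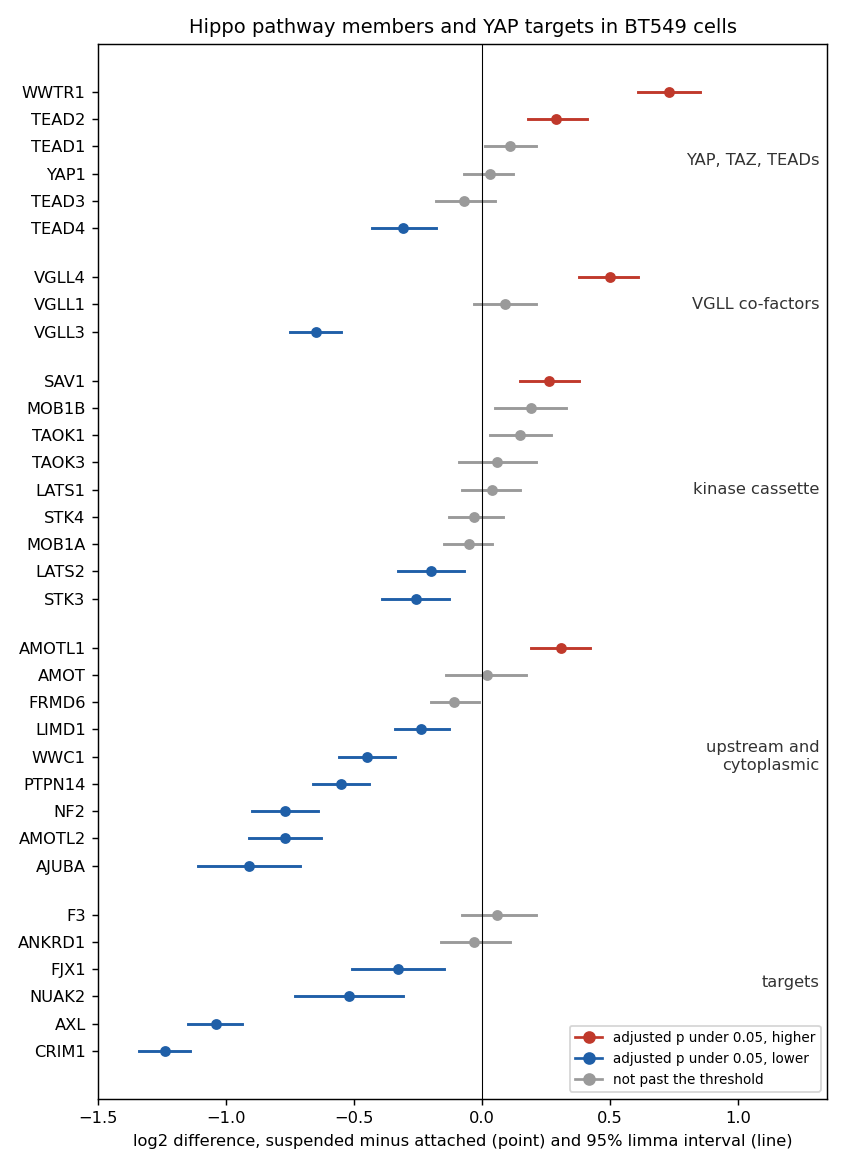
Log2 difference of each of the 33 members, suspended minus attached, on the x axis, with genes grouped by role down the y axis. Points are limma estimates from 4 arrays per group, lines are 95% intervals, and colour marks the call at adjusted p under 0.05: 5 members were higher, 14 lower and 14 not past the threshold.

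The co-activators YAP1 and WWTR1 differed from each other. WWTR1, which encodes TAZ (probe set 8091422), had log2 signals of 9.87, 9.86, 9.80 and 9.72 in suspended cells, against 8.98, 9.12, 9.08 and 9.13 in attached cells. The lowest suspended value lay well above the highest attached value. The difference was 0.73 (SE 0.0535, adjusted p = 3.23e-06), a 1.66-fold higher signal, and it ranked 106 from the top among the 18417 genes. YAP1 (probe set 7943398) had 9.55, 9.63, 9.52 and 9.57 in suspended cells and 9.56, 9.54, 9.54 and 9.53 in attached cells. The groups overlapped, and the difference of 0.03 had an interval of −0.07 to 0.12 (adjusted p = 0.724). The within-array difference YAP1 minus WWTR1 averaged −0.24 ± 0.08 in suspended and 0.46 ± 0.08 in attached cells (SD, n = 4 each), so that the changes of the paralogs were unequal by −0.70 (exact permutation test over 70 allocations, two-sided, p = 0.0286, the smallest this design allows, adjusted p = 0.0367 over 18 pairs of related members).

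Of the 4 TEAD genes, which encode the DNA-binding partners of YAP and TAZ, 1 rose, 1 fell and 2 did not pass. Among all genes 10.4% rose and 10.2% fell at the same threshold. TEAD2 had 8.65, 8.59, 8.59 and 8.75 in suspended cells, against 8.31, 8.37, 8.42 and 8.32 in attached cells. The suspended values were all higher, by 0.29 on average (SE 0.0531, adjusted p = 0.00225). TEAD4 ran the other way, with 7.16, 7.10, 7.13 and 7.29 in suspended cells, against 7.43, 7.41, 7.59 and 7.48 in attached cells. All its suspended values were lower, by 0.31 on average (log2 difference −0.31, SE 0.0576, adjusted p = 0.00265). TEAD1 had 9.14 to 9.21 in suspended and 9.02 to 9.11 in attached cells, groups that do not overlap but differ by only 0.11 (adjusted p = 0.119), and TEAD3 had a difference of −0.07 (interval −0.18 to 0.05). Among the 6 pairs of TEAD genes the change was unequal for 4 at an adjusted exact p of 0.0367, with TEAD2 and TEAD4 furthest apart (0.60). The pairs TEAD1 with TEAD2 and TEAD1 with TEAD3 did not pass (difference of changes −0.18 with a limma interval of −0.32 to −0.05, and 0.17 with an interval of 0.05 to 0.30; adjusted exact p = 0.0605 for each).

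The VGLL genes encode vestigial-like co-factors that bind TEAD on a surface shared with YAP and TAZ. VGLL4 is known as an antagonist that competes with YAP for TEAD, and VGLL3 as a TEAD co-factor of mesenchymal cells. VGLL4 (probe set 8085340) had 7.61, 7.68, 7.77 and 7.75 in suspended cells, against 7.16, 7.26, 7.16 and 7.26 in attached cells. It was higher in all 4 suspended samples, 1.41-fold on average (log2 difference 0.50, SE 0.0531, adjusted p = 5.61e-05). VGLL3 (probe set 8088979) had 8.29, 8.33, 8.38 and 8.32 in suspended cells, against 8.95, 9.06, 8.96 and 8.96 in attached cells. It was lower in all 4 suspended samples, 1.57-fold (log2 difference −0.65, SE 0.0464, adjusted p = 2.78e-06). The changes of VGLL3 and VGLL4 were unequal by −1.15, the widest gap among the 18 pairs (limma interval −1.27 to −1.03, exact permutation p = 0.0286, adjusted p = 0.0367). VGLL1 was dim, at 5.13 to 5.25 in suspended and 5.01 to 5.22 in attached cells, and its difference of 0.09 did not pass (adjusted p = 0.295).

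**Figure D2:**
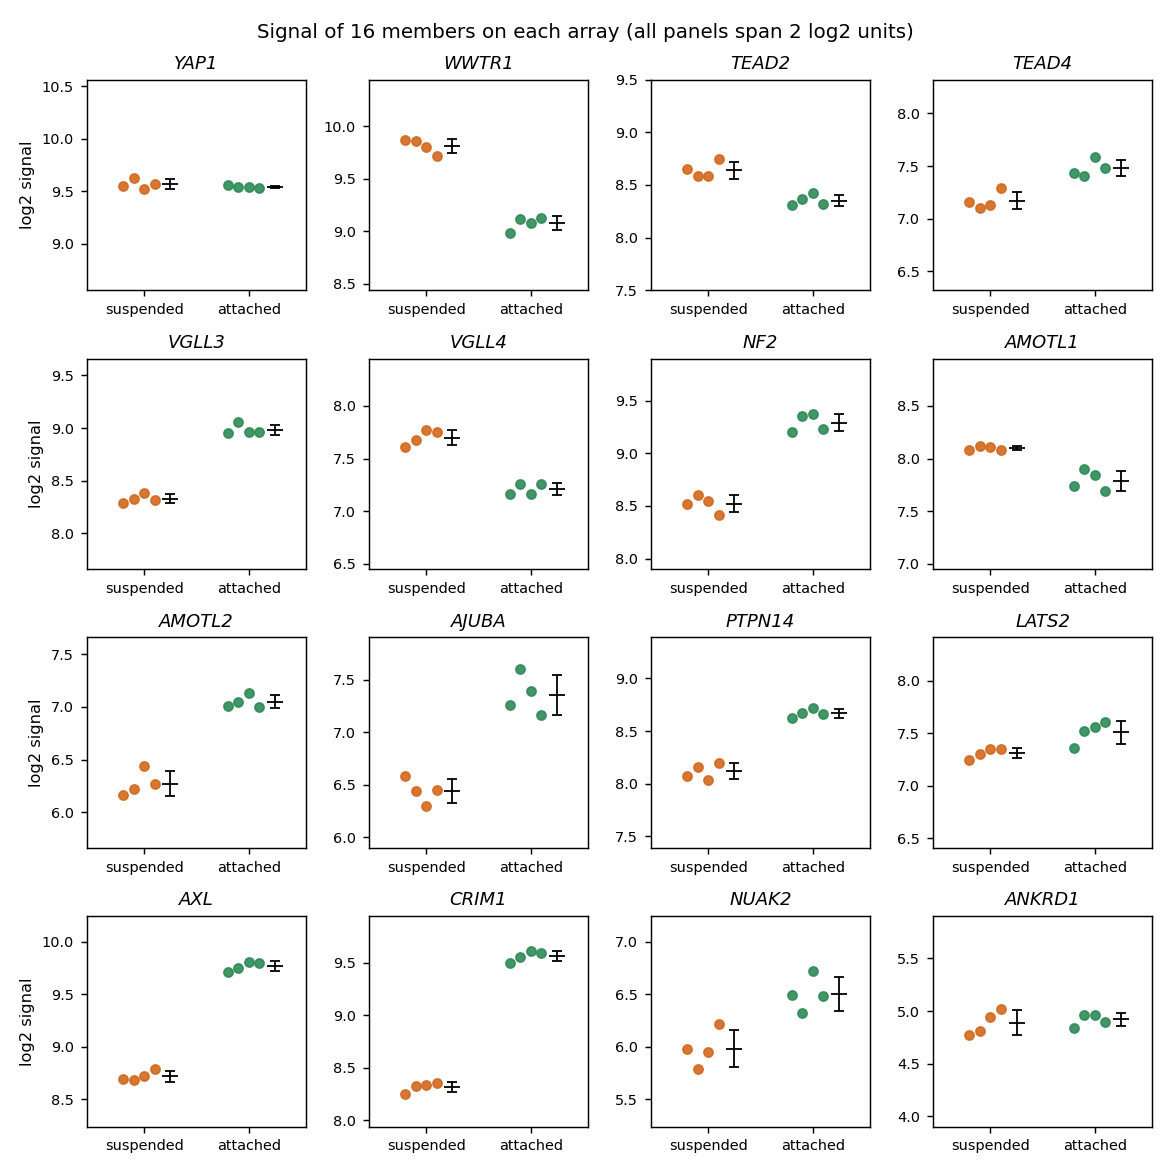
Log2 signal on the y axis of 16 members on each array, suspended samples left and attached samples right in each panel; points are arrays, and the bar beside them is the mean ± SD (n = 4). Every panel spans 2 log2 units, so that the separation of WWTR1, VGLL3, NF2, AXL and CRIM1 can be set against the overlap of YAP1 and ANKRD1.

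Of the 9 members of the kinase cassette SAV1 rose, STK3 and LATS2 fell, and 6 did not pass, shares of 11.1% higher and 22.2% lower beside the 10.4% and 10.2% of all genes. SAV1, the scaffold that joins STK3 and STK4 to LATS, had 7.73, 7.91, 7.83 and 7.78 in suspended cells, against 7.49, 7.57, 7.55 and 7.58 in attached cells. All suspended values were higher, by 0.26 on average (SE 0.0510, adjusted p = 0.0032). STK3, the kinase also called MST2, had 8.44, 8.53, 8.50 and 8.29 in suspended cells, against 8.71, 8.64, 8.69 and 8.76 in attached cells, and was lower in all 4 (log2 difference −0.26, SE 0.0586, adjusted p = 0.00858). Its paralog STK4 had overlapping groups, 9.30 to 9.44 in suspended and 9.39 to 9.43 in attached cells, and the change of the pair was unequal by −0.23 (exact permutation p = 0.0286, adjusted p = 0.0367).

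LATS2, a kinase that phosphorylates YAP and TAZ and is itself a known YAP target, had 7.25, 7.30, 7.35 and 7.35 in suspended cells, against 7.36, 7.52, 7.56 and 7.61 in attached cells. The groups did not overlap, although the lowest attached value was only just above the highest suspended ones. The difference was −0.20 (SE 0.0589, adjusted p = 0.0323), and over the 8 refits that leave out 1 array it ranged from −0.25 to −0.17; the refits lacking suspended replicate 1 or 2, or attached replicate 2, 3 or 4, did not call it. LATS1, its paralog, had a difference of 0.04 (interval −0.08 to 0.15), and the change of LATS1 exceeded that of LATS2 by 0.24 (exact permutation p = 0.0286, adjusted p = 0.0367).

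The MOB1 proteins bind and activate LATS. MOB1A had 9.02 to 9.06 in suspended and 9.06 to 9.13 in attached cells (difference −0.05, adjusted p = 0.417). MOB1B had 7.54, 7.57, 7.57 and 7.34 in suspended cells, against 7.38, 7.28, 7.22 and 7.39 in attached cells. Suspended replicate 4 alone lay among the attached values. The difference of MOB1B was 0.19 (SE 0.0652, adjusted p = 0.0629) with all arrays, and 0.25 (adjusted p = 0.0125) without suspended replicate 4. The other limma refits that left out 1 array did not call MOB1B (adjusted p = 0.0682 to 0.171). The changes of MOB1A and MOB1B were unequal by −0.24 (exact permutation p = 0.0286, adjusted p = 0.0367). TAOK1 and TAOK3, kinases that can activate STK3 and STK4, differed by 0.15 (adjusted p = 0.0787) and 0.06 (adjusted p = 0.601). TAOK1 was called by limma without suspended replicate 1 (0.19, adjusted p = 0.0284), but in no other refit that left out 1 array (adjusted p = 0.0849 to 0.172).

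Of the 9 upstream and cytoplasmic regulators among the members 6 fell, 1 rose and 2 did not pass, with a median difference of −0.45. These are 66.7% lower and 11.1% higher, beside 10.2% and 10.4% of all genes. AMOTL2 and PTPN14, among those that fell, are also known YAP targets, and the members were chosen with earlier results known. In the wider list of upstream genes given below, 9.38% fell and 12.5% rose. NF2 (probe set 8072242) encodes merlin, a membrane-linked protein that recruits LATS to the cell cortex. It had 8.52, 8.60, 8.55 and 8.41 in suspended cells, against 9.20, 9.35, 9.37 and 9.23 in attached cells. The groups were separated by more than the range within either, and the signal was 1.70-fold lower in suspension (log2 difference −0.77, SE 0.0581, adjusted p = 4.08e-06). WWC1, which encodes KIBRA, a scaffold that works with merlin, had 6.41, 6.28, 6.36 and 6.42 in suspended cells, against 6.87, 6.79, 6.82 and 6.77 in attached cells, a fall by 0.45 (log2 difference −0.45, SE 0.0490, adjusted p = 6.64e-05). FRMD6, which encodes a membrane-associated FERM-domain protein placed in the same branch, had 7.80 to 7.89 in suspended and 7.92 to 7.96 in attached cells, without overlap, and its difference of −0.11 did not pass (adjusted p = 0.109).

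AJUBA and LIMD1 encode related LIM-domain proteins that bind LATS at cell junctions and restrain it. AJUBA (probe set 7977854) had 6.58, 6.44, 6.30 and 6.45 in suspended cells, against 7.26, 7.60, 7.39 and 7.16 in attached cells. It was lower in all 4 suspended samples, 1.88-fold on average, the largest fall among the regulators (log2 difference −0.91, SE 0.0906, adjusted p = 3.31e-05), although it also had the widest spread of any member among attached samples (SD 0.190). LIMD1 had 7.94, 7.89, 7.82 and 7.93 in suspended cells, against 8.09, 8.19, 8.11 and 8.14 in attached cells, and fell by 0.24 (log2 difference −0.24, SE 0.0477, adjusted p = 0.00407). AJUBA fell further than LIMD1 by 0.67 (difference of changes −0.67, exact permutation p = 0.0286, adjusted p = 0.0367).

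The angiomotins AMOT, AMOTL1 and AMOTL2 are actin-binding and junction proteins that can hold YAP in the cytoplasm. AMOTL2 (probe set 8090852), also a known YAP target, had 6.16, 6.22, 6.44 and 6.27 in suspended cells, against 7.01, 7.05, 7.13 and 7.00 in attached cells. All suspended values were lower, 1.71-fold on average (log2 difference −0.77, SE 0.0638, adjusted p = 7.92e-06). AMOTL1 (probe set 7943263) had 8.08, 8.12, 8.11 and 8.08 in suspended cells, against 7.74, 7.90, 7.84 and 7.69 in attached cells, and all suspended values were higher, 1.24-fold (log2 difference 0.31, SE 0.0536, adjusted p = 0.00173). AMOT had 5.70 to 6.02 in suspended and 5.76 to 5.97 in attached cells, with a difference of 0.02 (interval −0.14 to 0.17). The changes of AMOTL1 and AMOTL2 were unequal by 1.08 (limma interval 0.95 to 1.21, exact permutation p = 0.0286, adjusted p = 0.0367). PTPN14 encodes a phosphatase that binds YAP and restrains it, and it is a known YAP target as well. It had 8.07, 8.16, 8.04 and 8.20 in suspended cells, against 8.62, 8.67, 8.72 and 8.66 in attached cells, and was 1.46-fold lower without overlap (log2 difference −0.55, SE 0.0518, adjusted p = 2.11e-05).

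Across the 18 pairs of related members, 14 changed unequally at an adjusted exact p of 0.0367. All 14 had an exact p of 0.0286, the smallest possible, whether the gap was −0.23 (STK3 with STK4) or −1.15 (VGLL3 with VGLL4). The adjusted value is thus the same for each and depends on how many of the 18 pairs reach that p. In 3 of the 14 pairs the members were called in opposite directions, namely VGLL3 with VGLL4, AMOTL1 with AMOTL2, and TEAD2 with TEAD4. Besides the TEAD pairs given above, AMOT with AMOTL1 (difference of changes −0.29, limma interval −0.45 to −0.13, adjusted exact p = 0.0605) and TAOK1 with TAOK3 (0.09, interval −0.06 to 0.25, adjusted exact p = 0.429) did not pass. Pairs that share a gene are not independent, and a difference within an array shows unequal change and not that either gene stayed the same. No share was counted over pairs of unrelated genes, and 19 of the 33 members were called singly, beside 20.6% of all genes. Whether related members differ more often than other pairs was therefore not tested.

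**Figure D3:**
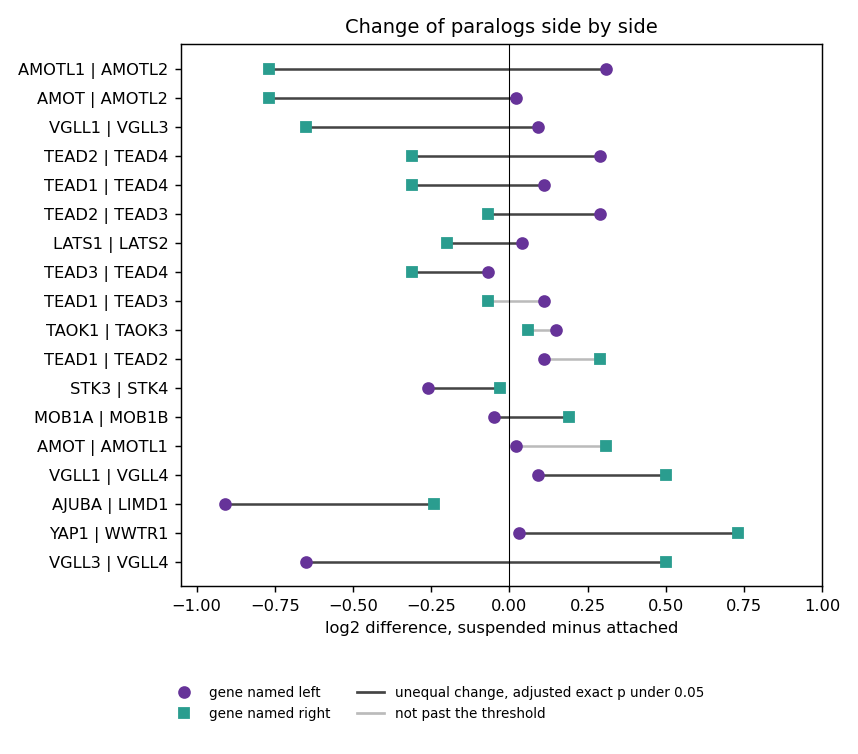
Log2 difference, suspended minus attached, on the x axis for each of 18 pairs of related members down the y axis, the gene named left as a circle and the gene named right as a square. Dark lines mark the 14 pairs whose change was unequal at an adjusted exact p under 0.05; VGLL3 with VGLL4 and AMOTL1 with AMOTL2 lie furthest apart.

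The targets fell or did not pass. Of 6 genes known chiefly as outputs of YAP, TAZ and TEAD, CRIM1, AXL, NUAK2 and FJX1 fell, none rose, and ANKRD1 and F3 did not pass (66.7% lower and 0% higher, beside 10.2% and 10.4% of all genes). LATS2, AMOTL2 and PTPN14 are known as regulators and as targets, and are the regulators within the 22-gene target signature given below. With these 3 added to the 6 targets, 7 of 9 fell and 0 rose by limma (2 did not pass), with a median difference of −0.52. Of the other 24 members, which may include further targets, 7 fell and 5 rose, with a median of 0.02. These are 77.8% lower among the 9, and 29.2% lower and 20.8% higher among the 24, beside 10.2% lower and 10.4% higher among all genes. As the members were chosen with earlier results known, these shares are not independent evidence of a direction either. CRIM1 (probe set 8041447), which encodes a membrane protein that binds bone morphogenetic proteins, had 8.25, 8.33, 8.34 and 8.36 in suspended cells, against 9.50, 9.55, 9.61 and 9.59 in attached cells. It showed the largest fall of the members, 2.36-fold, and ranked 7 from the bottom among 18417 genes (log2 difference −1.24, SE 0.0470, adjusted p = 2.76e-08). AXL (probe set 8029006), a receptor tyrosine kinase, had 8.69, 8.68, 8.72 and 8.79 in suspended cells, against 9.71, 9.75, 9.81 and 9.80 in attached cells. All suspended values were lower, and the SDs of 0.0507 in suspended and 0.0471 in attached cells were small beside the gap. The fall was 2.06-fold, rank 18 from the bottom (log2 difference −1.04, SE 0.0475, adjusted p = 8.46e-08).

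NUAK2, which encodes a kinase of the AMPK-related family that acts on the actin skeleton, had 5.98, 5.79, 5.95 and 6.22 in suspended cells, against 6.49, 6.32, 6.72 and 6.48 in attached cells. The groups lay close but did not overlap, and the signal was 1.43-fold lower (log2 difference −0.52, SE 0.0963, adjusted p = 0.00257). FJX1, the human counterpart of the Drosophila gene four-jointed, had 7.70, 7.56, 7.55 and 7.78 in suspended cells, against 7.85, 8.10, 8.13 and 7.82 in attached cells. The highest suspended and the lowest attached value were 7.78 and 7.82, and the difference was −0.33 (SE 0.0824, adjusted p = 0.0142). Limma with the replicate number as a block did not call FJX1 (adjusted p = 0.0546). ANKRD1, which encodes a cardiac ankyrin repeat protein and is among the most used YAP target genes, had 4.77, 4.81, 4.94 and 5.02 in suspended cells and 4.84, 4.96, 4.96 and 4.90 in attached cells. The groups overlapped fully, with a difference of −0.03 (interval −0.16 to 0.11). F3, which encodes tissue factor, the starter of blood clotting, had 4.55 to 4.84 in suspended and 4.59 to 4.65 in attached cells, with a difference of 0.06 (interval −0.08 to 0.21). Signals of ANKRD1, F3 and VGLL1 lay below the 25th percentile of gene means (5.283), so that a change in them may not have been measurable here.

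Since TEAD proteins bind the motif CATTCC, promoter sequence is shown for every member that carries it before its start, whether the gene passed the test or not. Windows from 250 bases before to 50 after each annotated start were taken from RefSeq (GRCh38.p14), of which 28 members had 42 in all, and TEAD1, TEAD4, STK3, LIMD1 and CRIM1 had none. CATTCC was present on either strand in 10 of the 42 windows of the members (23.8%), beside 14% of the 35116 windows of the promoter table and 12.1% of those of tested genes. By gene it was found in at least 1 window of 6 of the 10 members that fell and have a window, namely LATS2, AMOTL2, AJUBA, PTPN14, AXL and NUAK2, with the match of LATS2 lying after its start. It was found for 0 of the 5 that rose and 4 of the 13 that did not pass (YAP1, VGLL1, TAOK3 and ANKRD1), beside 15.5% of tested genes with a window. The 6 that fell and carry it are, except AJUBA, targets or regulators known as targets. Of the 9 targets and regulators known as targets, 8 have a window and 6 carry the motif (75%). The share by call therefore cannot be told apart from the choice of known targets as members. Genes with several starts have more windows and so more chances of a match. The AP-1 motif TGANTCA, no match of which overlapped a CATTCC match in these windows, was present in 4 of 42 member windows (9.52%) and in 7.71% of all windows; the 4 were those of LATS1, MOB1B, ANKRD1 and F3, none of which passed the test. In the sequences below, which are written 5′ to 3′ on the strand of the gene and end before its start, capitals mark the CATTCC motif or its reverse complement GGAATG.
AXL: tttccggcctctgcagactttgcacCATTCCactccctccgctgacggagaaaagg
NUAK2, distal: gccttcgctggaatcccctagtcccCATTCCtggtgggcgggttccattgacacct
NUAK2, proximal: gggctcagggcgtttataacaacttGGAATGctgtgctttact
PTPN14: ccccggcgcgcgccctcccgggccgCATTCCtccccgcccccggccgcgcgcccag
AMOTL2: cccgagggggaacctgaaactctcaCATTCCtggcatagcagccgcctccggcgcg
AJUBA: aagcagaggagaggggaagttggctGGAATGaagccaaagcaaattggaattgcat
ANKRD1, distal: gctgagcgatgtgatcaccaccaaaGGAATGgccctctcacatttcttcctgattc
ANKRD1, proximal: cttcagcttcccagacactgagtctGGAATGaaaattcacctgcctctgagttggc
YAP1: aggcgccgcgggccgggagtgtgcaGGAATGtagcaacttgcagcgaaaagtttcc
VGLL1: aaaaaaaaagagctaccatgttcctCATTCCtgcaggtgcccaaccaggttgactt
TAOK3: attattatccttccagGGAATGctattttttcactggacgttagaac

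These stretches lie in GRCh38.p14 at chr19:41226518-41226573 on the plus strand for AXL, chr1:205321912-205321967 and chr1:205321746-205321788 on the minus strand for NUAK2, and chr1:214551772-214551827 on the minus strand for PTPN14. Those of genes that did not pass are, besides ANKRD1, chr11:102110260-102110315 for YAP1 and chrX:136532033-136532088 for VGLL1 on the plus strand, and chr12:118190739-118190785 for TAOK3 on the minus strand. The remaining ones are at chr3:134374486-134374541 for AMOTL2, chr14:22976871-22976926 for AJUBA, and chr10:90921277-90921332 and chr10:90921185-90921240 for ANKRD1, all on the minus strand. The motif begins 212 bases before the start in AXL, 200 in PTPN14, 69 in AMOTL2 and 59 in AJUBA; AXL, AMOTL2, AJUBA and TAOK3 each have 2 windows, of which 1 holds it. It begins 162 bases before the start in YAP1, 157 in VGLL1 and 234 in TAOK3. It begins 197 and 18 bases before the start in NUAK2, which fell, and 220 and 128 in ANKRD1, whose groups overlapped. The signal of ANKRD1 lay below the 25th percentile of gene means, so that a change in it may not have been measurable. A match of letters is a description and does not show that TEAD binds there.

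Genes of the same pathway that are not members were counted in 3 lists. The first holds the 13 remaining genes of a 22-gene signature of YAP and TAZ targets, to which LATS2, AMOTL2, PTPN14 and the 6 targets above also belong. Of these 13, 7 fell and 2 rose (53.8% and 15.4%, beside 10.2% and 10.4% of all genes), with a median difference of −0.17. CCN1, a matrix-associated protein, differed by −1.93 (adjusted p = 1.48e-08), the growth factor carrier IGFBP3 by −1.30 (adjusted p = 4.06e-07) and CCDC80 by −1.08 (adjusted p = 5.63e-08), while TGFB2 (0.72, adjusted p = 1.40e-06) and NT5E (0.34, adjusted p = 0.000223), which encode a TGF-beta ligand and the ectonucleotidase CD73, rose. CCN2, a relative of CCN1 and an equally well-known target, had 10.07, 10.07, 10.05 and 10.02 in suspended cells, against 10.29, 10.47, 10.52 and 10.43 in attached cells, a fall by 0.37 (log2 difference −0.37, adjusted p = 0.000529). Over the whole signature 14 of 22 genes fell and 2 rose (63.6% and 9.09%, beside the same shares of all genes), with a median difference of −0.27. Part of this signature was already known to be lower in these arrays when the lists were drawn up, so its count is not independent evidence of a direction.

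The second list holds upstream kinases, polarity and junction genes, and 32 of its 35 genes were measured. Among these 3 fell and 4 rose, 9.38% and 12.5%, close to the 10.2% and 10.4% of all genes. Without attached replicate 4, 2 rose. FAT4, an atypical cadherin, had 7.01, 6.86, 7.02 and 6.99 in suspended cells, against 7.61, 7.58, 7.57 and 7.65 in attached cells (log2 difference −0.63, adjusted p = 6.13e-06). WWC2, a relative of WWC1, differed by −0.28 (adjusted p = 0.00947) and the polarity gene PALS1 by −0.23 (adjusted p = 0.0148). CTNNA1, which encodes alpha-catenin of cell junctions, rose by 0.46 (adjusted p = 7.31e-05), followed by FAT1 (0.22), MINK1 (0.19) and LLGL1 (0.18). MINK1 ranged from 0.14 to 0.23 over the 8 refits and was called in those lacking replicate 2 of either group only, and LLGL1 was not called without attached replicate 4 (0.17, adjusted p = 0.0521). The third list holds subunits of the STRIPAK phosphatase complex, which acts against STK3 and STK4, genes for YAP and TAZ degradation, and the phosphoserine-binding adaptors that hold YAP in the cytoplasm. Of its 25 measured genes YWHAH (−0.24) and STRIP2 (−0.22) fell and STRN (0.25) and YWHAQ (0.16) rose, 8.0% each way, beside 10.2% and 10.4% of all genes. Leaving out replicate 3 or 4 of either group ended the call of YWHAQ (0.14 to 0.16 in these refits). The calls of MINK1 and YWHAQ were also lost when arrays were centred on their medians (adjusted p = 0.0830 and 0.0619), and those of MINK1, YWHAQ and LLGL1 when they were centred on the medians of tested genes (adjusted p = 0.114, 0.115 and 0.0742).

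**Figure D4:**
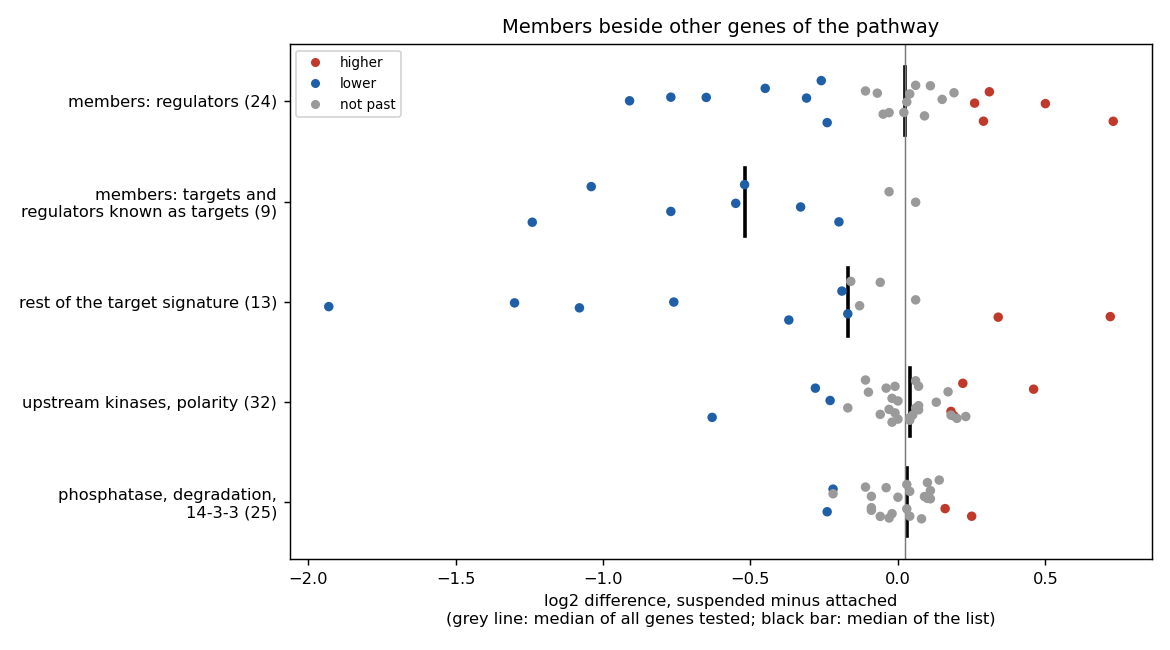
Log2 difference, suspended minus attached, on the x axis for single genes (points), with 5 sets down the y axis; the number of measured genes is in brackets, black bars are medians and the grey line is the median of all genes tested. Medians are −0.52 for the 9 targets and regulators known as targets, 0.02 for the other 24 members, −0.17 for the rest of the signature, 0.04 for the upstream list and 0.03 for the phosphatase and degradation list, beside 0.02 over all genes.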

How the data were processed

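The authors deposited 1 table of log2 signals for 33297 probe sets on 8 arrays, and no further normalization was applied. Partek was used, per the submitters' processing notes, and how it corrected, normalized and summarised the signals is not given in the sources consulted. The labels name a labelling kit for small-RNA arrays, which leaves the labelling for these gene-level arrays uncertain.

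Probe sets with 1 gene symbol in the platform annotation (19460) were tested as genes, with the probe set of highest mean for the 769 genes that had several, which left 18417. The 33 members have 1 probe set each. The test was limma (version 3.58.1, R 4.3.3), two-sided and without covariates, Benjamini-Hochberg adjusted over all genes, at 0.05. Differences are suspended minus attached and SE is the moderated standard error. Pairs of related members were compared by an exact permutation test of their within-array difference, adjusted over 18 pairs. The script was tested on simulated data. Promoter windows come from RefSeq, GRCh38.p14. Tables used Python 3.11.15 with scipy 1.17.1 and pandas 2.3.3, and plots matplotlib 3.10.9.

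The members and lists were chosen with earlier results of these data known. Genes named are all members, the 4 of each other list with the smallest adjusted p, every called gene where a count is 5 or fewer, CCN1 and CCN2. Alternatives were 2 median centrings (over all probe sets, and over tested genes, the latter added after seeing the data), quantile normalization, array weights, the replicate number as a block, 2 filters on dim genes, the mean of all probe sets, and leaving out each array.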

Additional observations from a re-analysis of the deposited data

Results flagged for a closer look

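In 3 of the 66 sets of 4 arrays (33 members in 2 groups) the highest or lowest array stood apart from the rest by a gap that took up more of the set's range than Dixon's critical value allows; chance would flag about 3.3. VGLL3 read 9.06 on attached replicate 2, above 8.95 to 8.96 on the other attached arrays, a gap of 0.866 of the range. MOB1B read 7.34 on suspended replicate 4, below 7.54 to 7.57 on the other suspended arrays (0.839 of the range). TAOK1 read 8.70 on attached replicate 1, above 8.62 to 8.63 on the other attached arrays (0.843 of the range). Without attached replicate 2 the difference of VGLL3 was −0.63, and with all arrays −0.65.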

How the results depend on the processing

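Of the 19 called members 17 kept their call and direction under every alternative that tested them; the exceptions were LATS2, given in the report, and FJX1, which was not called under a block for replicate number (−0.33, adjusted p = 0.0546). Same-numbered arrays did not deviate together (r = −0.198 to 0.042 over 4 pairs, beside −0.203 to 0.256 over 12 pairs of unlike number). No pairing by number was seen, but this cannot show that the cultures were not set up in pairs. With that replicate block 13 members were lower and 5 higher, and the third list had 1 rise. The members lower in suspension numbered 13 to 14 and those higher 5 to 6 when 1 array was left out, but 8 were higher after quantile normalization and when only genes above the median level were kept, TEAD1, MOB1B and TAOK1 being the additions in each. Falls in the rest of the signature numbered 5 to 7 when 1 array was left out and 5 to 9 under the other alternatives, against 7, with 2 rises throughout. MINK1 and YWHAQ were not called with the replicate block (adjusted p = 0.0601 and 0.0773). Rises in the upstream list numbered 2 after centring on tested genes and 2 to 5 when 1 array was left out. Rises in the phosphatase and degradation list numbered 1 under either median centring, 4 after quantile normalization and 1 to 3 when 1 array was left out. The pairs with unequal change were 14 by the exact test and 17 by limma, with or without the replicate block, and 16 to 18 by limma with 1 array left out. Only uncalled members changed sign: STK4 to 0.0267 after quantile normalization and 0.00145 without suspended replicate 4 (−0.04 to 0.00145 with 1 array left out), MOB1A to 0.00508 after quantile normalization, and ANKRD1 to 0.0120 without suspended replicate 1 (−0.07 to 0.0120 with 1 array left out). AMOT turned to −0.00641 under median centring, −0.00514 after quantile normalization, −0.00325 with array weights, −0.0234 without attached replicate 2 and −0.0278 without suspended replicate 1 (−0.0278 to 0.08 with 1 array left out). After centring on tested genes YAP1 was −0.0195, LATS1 −0.00995 and AMOT −0.0295. Centring on tested genes moved the share of calls that were higher among all genes to 35.2%, against 50.4% as deposited. The cause of these changes was not tested. For ANKRD1, F3 and VGLL1, signal near the dim end limits what can be measured.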
